A study of Homo sapiens with 8 samples.

Results

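The H3K9me3 intervals described here lie at 10 imprinted loci, H19, KCNQ1OT1, SNRPN, PEG10, MEST, GRB10, GNAS, PLAGL1, MEG3 and NNAT. Each locus is represented by 1 fixed window on hg19 around its control region, of 20 to 80 kb and 430 kb in all, and an interval was taken when it overlapped the window by at least 1 bp. The windows held 9 of 23842 intervals in parental cells, 17 of 47866 in DTP and 20 of 53000 in DTP + TSA. The cells are PC9, an established human lung adenocarcinoma line with an activating EGFR mutation. The parental library came from untreated cells, DTP (drug-tolerant persisters) from cells that survived 1 uM erlotinib, an EGFR inhibitor, for 8 days with the drug renewed in the medium, and DTP + TSA from such persisters after 50 nM TSA (trichostatin A, a histone deacetylase inhibitor) for 5 hours. Each state is 1 library of 1 cell line, so no difference below has a replicate check and none was tested. Read depth is unknown from the lists, and the number and length of intervals can change with it.

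An imprinted gene is expressed from the copy of 1 parent, under a control region whose DNA is methylated on only 1 parental copy. On the methylated copy such regions carry H3K9me3, which the zinc finger proteins ZFP57 and ZNF445 place there through TRIM28 and the methyltransferase SETDB1. On the other copy the region is unmethylated and usually acts as a promoter or an insulator. H19 and MEG3 have control regions methylated on the paternal copy, the GNAS locus has promoters of both kinds, and the other members are methylated on the maternal copy. The lists do not separate the parental copies. In a population of cells, fewer marked cells and less mark per cell cannot be told apart either. hg19 gene positions were not used here, so an interval is located by its hg19 coordinates and within its window, not by exon or promoter.

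RefSeq promoters on GRCh38.p14 are shown for the members that had an interval with its summit inside the window in all 3 libraries and an entry in the table. 7 of the 10 members had entries, and for each the start with the most CpG among its entries was taken. Each line gives the 250 bases before the start, 5′ to 3′, with capitals marking TGCCGC, the core of the ZFP57 motif, or its reverse complement GCGGCA. They were picked by CpG and not by methylation, which these data do not measure, so a start shown need not be the imprinted one. They were not placed relative to the hg19 intervals.
SNRPN: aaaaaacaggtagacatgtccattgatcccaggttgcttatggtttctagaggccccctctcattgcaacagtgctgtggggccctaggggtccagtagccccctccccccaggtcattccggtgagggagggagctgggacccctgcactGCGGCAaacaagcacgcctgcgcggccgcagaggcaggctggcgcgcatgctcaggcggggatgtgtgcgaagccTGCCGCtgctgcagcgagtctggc
MEST: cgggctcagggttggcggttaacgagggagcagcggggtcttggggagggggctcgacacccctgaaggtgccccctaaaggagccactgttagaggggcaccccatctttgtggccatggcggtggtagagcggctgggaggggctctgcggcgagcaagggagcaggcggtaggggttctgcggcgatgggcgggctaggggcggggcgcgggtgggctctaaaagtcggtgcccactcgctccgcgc
GRB10: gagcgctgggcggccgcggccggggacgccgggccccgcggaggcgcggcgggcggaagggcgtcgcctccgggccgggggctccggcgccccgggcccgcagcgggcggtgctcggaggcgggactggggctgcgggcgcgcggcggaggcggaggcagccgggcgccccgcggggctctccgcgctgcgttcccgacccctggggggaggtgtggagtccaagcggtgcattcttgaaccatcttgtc
PLAGL1: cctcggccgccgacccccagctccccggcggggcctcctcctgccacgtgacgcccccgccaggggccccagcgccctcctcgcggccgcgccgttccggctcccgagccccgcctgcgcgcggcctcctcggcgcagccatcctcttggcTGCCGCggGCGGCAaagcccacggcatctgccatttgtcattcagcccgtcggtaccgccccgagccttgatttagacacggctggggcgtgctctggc
MEG3: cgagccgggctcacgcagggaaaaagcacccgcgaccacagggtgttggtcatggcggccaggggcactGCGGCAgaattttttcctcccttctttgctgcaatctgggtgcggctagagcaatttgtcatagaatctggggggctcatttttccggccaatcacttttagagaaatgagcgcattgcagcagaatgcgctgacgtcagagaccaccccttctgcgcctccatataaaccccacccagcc

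These stretches lie at chr15:24954737-24954986 (SNRPN, plus strand, a start shared with SNURF), chr7:130491835-130492084 (MEST, plus), chr7:50792875-50793124 (GRB10, minus), chr6:144008260-144008509 (PLAGL1, minus, a start shared with the noncoding HYMAI) and chr14:100825858-100826107 (MEG3, plus). With the 50 bases after the start included, the 300 bases held 18 CpG in SNRPN, 25 in MEST, 49 in GRB10, 39 in PLAGL1 and 19 in MEG3, against a median of 14 over 35116 promoters. The starts were chosen by CpG, so these counts are a description. Of the 7 members with entries, 6 were above this median, and H19, not shown, had 6 CpG at its only entry. The motif core, on either strand, occurred 2 times in SNRPN, 2 times in PLAGL1, 1 time in MEG3 and 3 times in MEST, where no match lay wholly within the 250 bases shown. GRB10 had none at this start and 1 match at another of its starts. Of all 29 entries of the members, several of which overlap, 12 held it, against 16.7% of all promoters. A match is a run of letters and not a binding site.

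Parental cells had H3K9me3 intervals in 7 of the 10 windows, with none at KCNQ1OT1, GNAS and NNAT. Each of the treated libraries had them in all 10. Covered length over the 10 windows was 24.8 kb (5.77%) in parental cells, 55.8 kb (13.0%) in DTP and 71.6 kb (16.7%) in DTP + TSA. The same shares were 4.12%, 5.42% and 5.89% of chromosomes 1 to 22 and X, and 7.21%, 8.03% and 13.7% of the 1 Mb around each window (500 kb on each side). Windows had 2.25 times the parental length in DTP, where their surroundings had 1.11 times. When the treated lists were shortened to the parental number of intervals, keeping those of highest mean signal, these ratios were 1.44 and 0.507. Only the treated lists lose intervals by this, which lowers both ratios by construction. The ratio over the whole genome was not computed in this setting. From DTP to DTP + TSA the order was the other way, 1.28 times in the windows and 1.71 times around them.

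Intervals in the windows had median lengths of 2600, 3000 and 3300 bp in parental cells, DTP and DTP + TSA, where the whole lists had 3800, 2400 and 2400 bp. Of them, 8 of 9, 10 of 17 and 15 of 20 had a mean signal above their library's median.

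The count of marked windows is read against all genome pieces of 40 kb, near the mean window length. Of such pieces, 25.4% held a parental interval, 44.4% a DTP one and 46.2% one of DTP + TSA, while 18.7% held one in all 3 libraries, as 7 of the 10 windows did. When each list kept only its 23842 strongest intervals, 7 windows were marked in parental cells, 7 in DTP and 8 after TSA. Of the pieces, 25.4%, 26.4% and 25.9% were. This cut leaves the parental list whole, so counts could fall only in the treated libraries. KCNQ1OT1, MEG3 and NNAT were then unmarked in DTP, and KCNQ1OT1 and PLAGL1 in DTP + TSA. GNAS, without a parental interval, stayed marked in both treated libraries, and NNAT in DTP + TSA. Longer pieces hold intervals more often, and those of 80 kb, the length of the GNAS and PLAGL1 windows, did so in 38.9%, 63.3% and 64.6%. The windows were placed at known regulatory regions, the pieces take in unsequenced and gene-poor parts of the genome, and the part of imprinting in the windows' share was not tested.

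**Figure D1:**
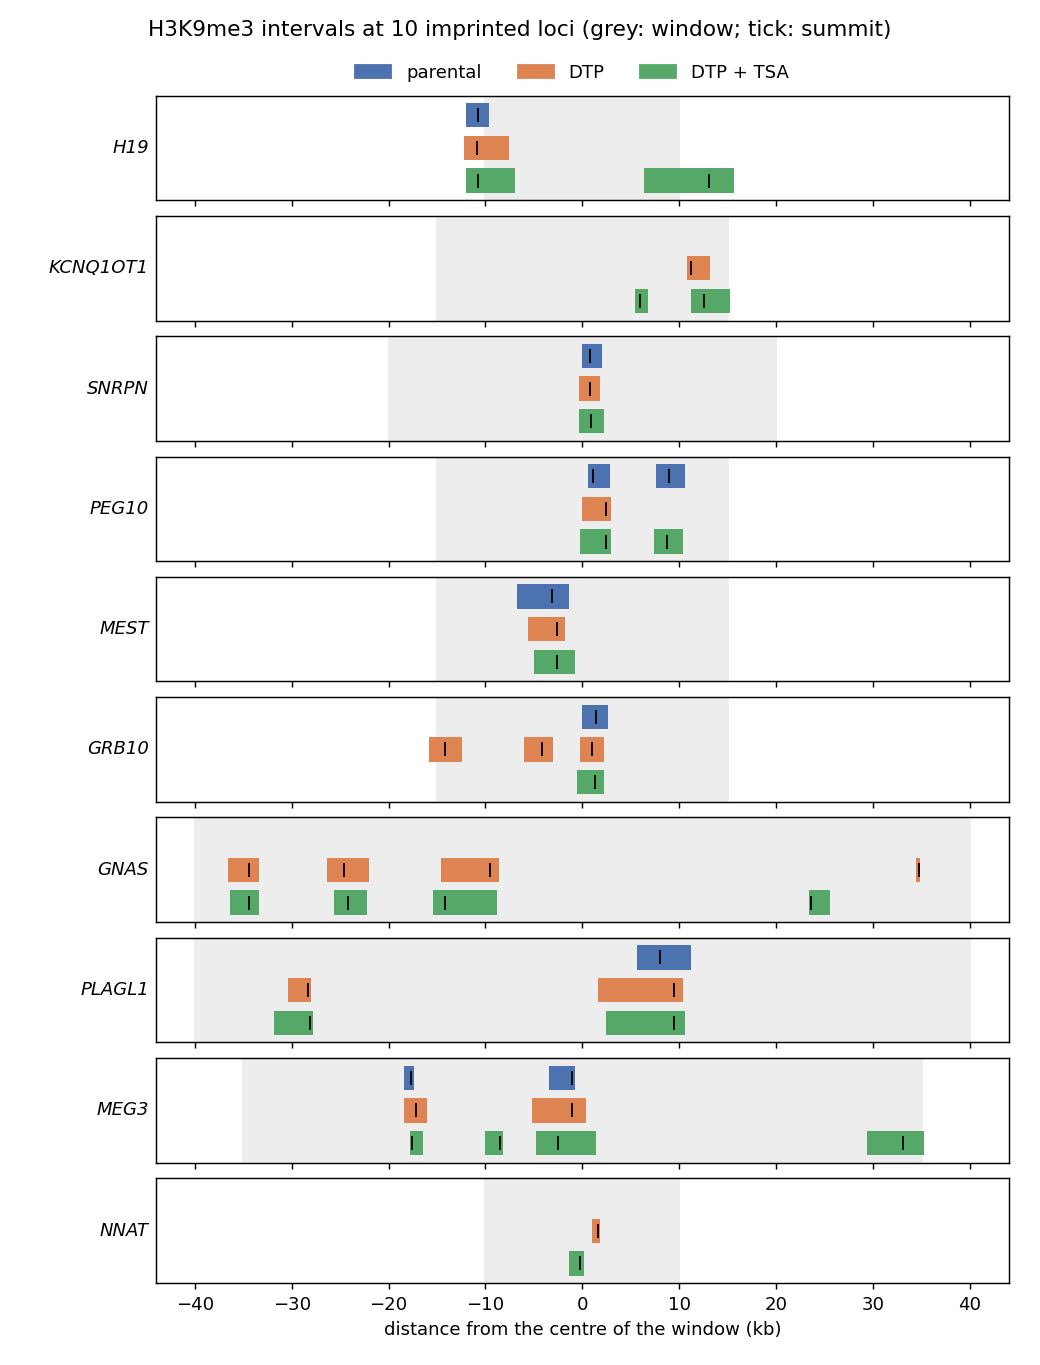
Map of the H3K9me3 intervals in the 10 windows. The x axis is the distance from the window's centre in kb, bars are intervals of the parental (blue), DTP (orange) and DTP + TSA (green) libraries, ticks are summits and grey is the window. H19, SNRPN, PEG10, MEST, GRB10, PLAGL1 and MEG3 have a site common to the 3 libraries, which at H19 straddles the window's border. KCNQ1OT1, GNAS and NNAT lack parental intervals.

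Intervals of the 3 libraries were merged into 24 sites where they overlapped within a window. 8 sites, in 7 members, were present in all 3 libraries, 5 in DTP and DTP + TSA, 6 in DTP + TSA alone (1 of these, at H19, met a DTP interval beyond the window), 4 in DTP alone and 1 in parental cells and DTP + TSA. No site was seen in parental cells alone or in parental cells and DTP alone. These patterns were not counted over sites of the whole genome. The parental list is the shortest, with 23842 intervals against 47866 in DTP and 53000 in DTP + TSA, so the counts are a description only. At the 8 common sites the summits of the 3 libraries lay 96 to 1472 bp apart, within 1 kb at 5 of them. The authors' mean signal was ranked within each library, since no source gives its scaling between libraries. The 24 intervals of common sites had a median percentile of 73.8 in their own library (range 5.93 to 97.5). It was 67.2 (6.01 to 96.0) for the 12 intervals of sites seen in 2 libraries. For the 10 intervals of sites seen in 1 library it was 49.8 (2.97 to 76.7). The same medians were not computed over all sites of the genome.

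**Figure D2:**
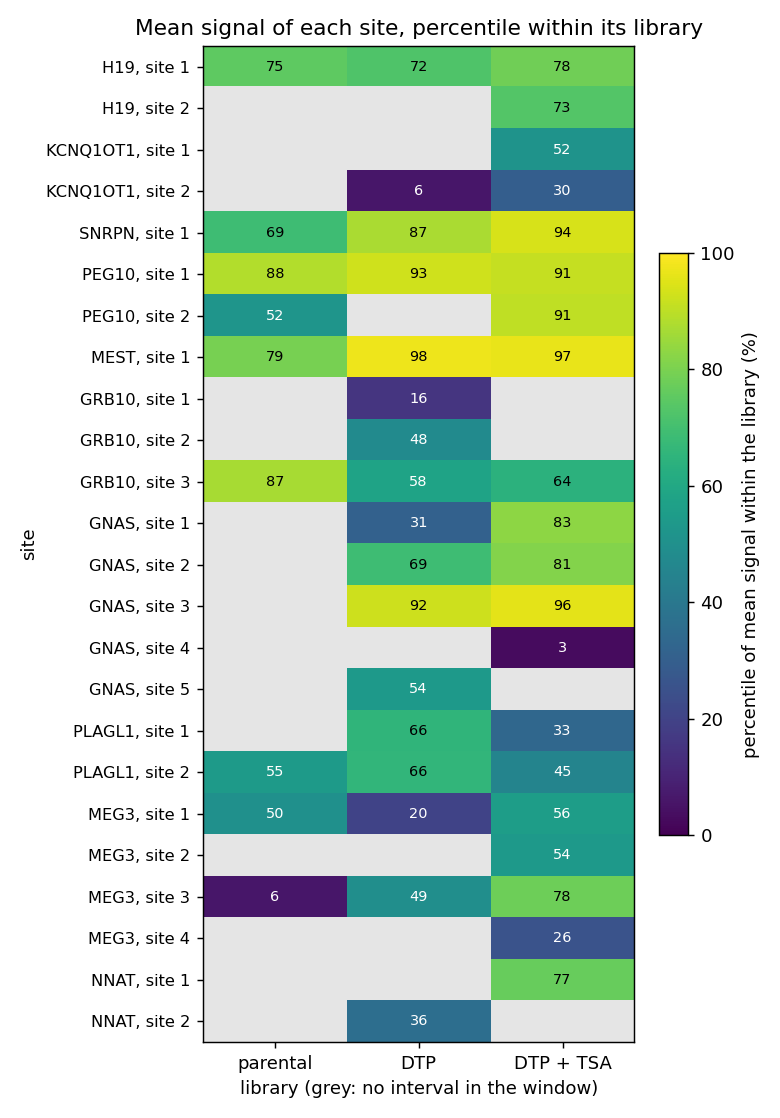
Each row is 1 of the 24 sites, numbered along its window, and each column a library. Colour and number give the percentile of the site's mean signal among all intervals of that library, and grey marks a site without an interval there. MEST, SNRPN, site 1 of PEG10 and site 1 of H19 are at percentile 68.9 or above in each list. The lowest values are 2.97 at GNAS in DTP + TSA, 5.93 at MEG3 in parental cells and 6.01 at KCNQ1OT1 in DTP.

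H19 and MEG3 are the members with paternal methylation. H19 is a noncoding RNA whose control region, an insulator bound by CTCF on the unmethylated copy, keeps IGF2 silent on that copy. The H19 window, chr11:2010001-2030000, was covered over 0.4 kb in parental cells, 2.4 kb in DTP and 6.6 kb in DTP + TSA. Pieces of 20 kb held an interval in 16.2%, 28.9% and 30.6% of cases. The shared site crossed the start of the window, at chr11:2008001-2010400 in parental cells, chr11:2007801-2012400 in DTP and chr11:2008001-2013000 in DTP + TSA, and its 3 summits, within 96 bp of each other, were all outside. Inside the window lay 0.4 of 2.4 kb in parental cells, 2.4 of 4.6 kb in DTP and 3.0 of 5.0 kb in DTP + TSA. Over their whole length these intervals had mean signals of 10.7, 13.5 and 16.8, at percentiles 75.1, 72.5 and 78.2. The middle of the window, chr11:2013001-2026400, had no interval in any library. A second site at chr11:2026401-2035600 was an interval of 9.2 kb in DTP + TSA, with its summit beyond the window. DTP had a shorter interval on that stretch, chr11:2031801-2034800, outside the window. Every interval of the H19 window thus reached in across a border, with its summit outside.

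MEG3 is a maternally expressed noncoding RNA next to DLK1, with a control region upstream and a methylated promoter. Its window, chr14:101260001-101330000, was covered over 3.6 kb in parental cells, 8.0 kb in DTP and 15.0 kb in DTP + TSA. Pieces of 70 kb held an interval in 35.9%, 59.4% and 61.0% of cases. The sites at chr14:101276601-101279000 and chr14:101289801-101296400 were present in each library. The first of them was 1.0, 2.4 and 1.4 kb long, with mean signals of 8.23, 7.52 and 11.9 at percentiles 50.1, 20 and 55.7. The other was 2.6, 5.6 and 6.2 kb long, with mean signals of 5.33, 10.3 and 16.8 at percentiles 5.93, 49.3 and 78.1, so the parental interval was among the weakest of its list. DTP + TSA had 2 further intervals, of 1.8 kb between these sites and of 5.8 kb at the far end of the window. Among intervals above each library's median mean signal, the window was covered over 1.43% in parental cells, none in DTP and 13.4% in DTP + TSA. The longer cover in DTP thus consisted of intervals below that median, the longer of them just below it.

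KCNQ1OT1 is an antisense RNA that starts inside KCNQ1 on the paternal copy and silences neighbours such as CDKN1C. Its window, chr11:2700001-2730000, had no interval in parental cells, 1 of 2.4 kb in DTP, and intervals of 1.4 and 4.0 kb in DTP + TSA. Pieces of 30 kb held an interval in 21.0%, 37.3% and 39.1% of cases. The DTP interval, at chr11:2725801-2728200, was weak, with a mean signal of 6.04 at percentile 6.01. In DTP + TSA the interval on the same stretch had a mean of 8.97 (percentile 29.8). The one found there alone, at chr11:2720401-2721800, had 11.3 (percentile 51.5). Marked chromatin was close by in parental cells, where an interval of 27.0 kb ended 8.6 kb before the window. Flanking windows of equal length were covered over 35.7%, 31.7% and 42.0%, more than the window itself in each library.

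SNRPN, which encodes a splicing protein, starts at the control region of the Prader-Willi and Angelman locus. The SNRPN window, chr15:25180001-25220000, had 1 interval in each library, of 2.0 kb in parental cells, 2.2 kb in DTP and 2.6 kb in DTP + TSA. All lay between chr15:25199601 and chr15:25202200, and the summits were within 128 bp. The 3 mean signals were 9.90, 18.3 and 32.2, in the order parental, DTP, DTP + TSA, which placed the interval at percentiles 68.9, 87.3 and 94.1 of these lists. The flanking windows had no interval in any library. The interval therefore stood alone over the window and both flanks, in the same place in all 3 libraries.

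PEG10, a gene derived from a retrotransposon, shares its promoter region with SGCE. Its window, chr7:94270001-94300000, was covered over 5.2 kb in parental cells, 3.0 kb in DTP and 6.2 kb in DTP + TSA. The site present in each library was 2.2, 3.0 and 3.2 kb long, with mean signals of 13.96, 22.6 and 26.9 at percentiles 88.5, 92.6 and 91.4. A second site, at chr7:94292401-94295600, had an interval of 3.0 kb in parental cells and of 3.0 kb in DTP + TSA and none in DTP. It was the only site of the 24 with this pattern. Its mean signal was 8.37 (percentile 52.1) in parental cells and 25.7 (percentile 90.6) in DTP + TSA. Flanks were free of intervals in each library.

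MEST encodes a hydrolase-like protein expressed from the paternal copy. Its window, chr7:130120001-130150000, held 1 interval per library, of 5.4 kb in parental cells, 3.8 kb in DTP and 4.2 kb in DTP + TSA. MEST had the highest mean signal of all members in both treated libraries, 34.2 in DTP and 43.0 in DTP + TSA, or 3.31 and 3.86 times the library medians of 10.3 and 11.1. In parental cells it was 11.4, or 1.39 times the median of 8.22, below PEG10 and GRB10. By rank the MEST interval was number 1187 of DTP and 1672 of DTP + TSA. A stretch of 3.2 kb, chr7:130130001-130133200, was common to the 3 libraries.

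GRB10 encodes an adaptor that restrains insulin and growth factor receptor signalling. Its window, chr7:50840001-50870000, was covered over 2.6 kb in parental cells, 8.0 kb in DTP and 2.8 kb in DTP + TSA. The common site, near chr7:50855001-50857200, had mean signals of 13.3, 11.3 and 13.3 at percentiles 86.8, 58.0 and 64.1. DTP had 2 more intervals, chr7:50839201-50842600 (mean 7.10, percentile 15.5) and chr7:50849001-50852000 (mean 10.1, percentile 48.0), which neither other library had. GRB10 was the only window covered less in DTP + TSA than in DTP. Beyond the window, 16.0 kb past its end, parental cells had a domain of 49.8 kb at chr7:50886001-50935800. DTP covered 2.6 kb of that domain and DTP + TSA 2.8 kb. The domain was chosen after its values were seen, as the longest interval in the flanks of any window.

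PLAGL1 encodes a zinc finger transcription factor and shares an imprinted promoter with HYMAI. Its window, chr6:144320001-144400000, was covered over 5.6 kb in parental cells, 11.2 kb in DTP and 12.2 kb in DTP + TSA. The common site was 5.6, 8.8 and 8.2 kb long, with percentiles of 54.6, 66.0 and 45.1. The site at chr6:144328201-144332200 was found in DTP (2.4 kb, percentile 65.5) and DTP + TSA (4.0 kb, percentile 33.4) and not in parental cells. No PLAGL1 interval of DTP + TSA was above the median signal of its list, while both DTP intervals were above theirs.

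NNAT encodes a small membrane protein of brain and endocrine cells and lies inside BLCAP. Its window, chr20:36140001-36160000, had no interval in parental cells, 0.8 kb in DTP and 1.6 kb in DTP + TSA. The 2 intervals did not overlap, at chr20:36151001-36151800 in DTP (mean 8.96, percentile 36.1) and chr20:36148601-36150200 in DTP + TSA (mean 16.3, percentile 76.7). The nearest parental interval was 52.0 kb before the window. Flanks were free of intervals in each library.

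GNAS encodes the stimulatory G protein subunit and has several promoters with opposite imprints. Its window, chr20:57400001-57480000, had no interval in parental cells, the nearest being 68.8 kb past its end. DTP had 4 intervals over 14 kb and DTP + TSA 4 over 15.2 kb. 3 sites were shared by these libraries, at chr20:57403401-57406600, chr20:57413601-57418000 and chr20:57424601-57431400. Their mean signals were 8.51, 12.9 and 22.4 in DTP, at percentiles 31.2, 68.9 and 92.5, and 19.1, 18.2 and 38.6 in DTP + TSA, at percentiles 83.2, 81.4 and 96.0. At the last of them the summits lay 4624 bp apart, at opposite ends of the interval. A weak interval of 2.2 kb (percentile 2.97) was found in DTP + TSA alone and one of 0.4 kb in DTP alone. GNAS was thus without an interval in parental cells and had an interval among the strongest of each other list.

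**Figure D3:**
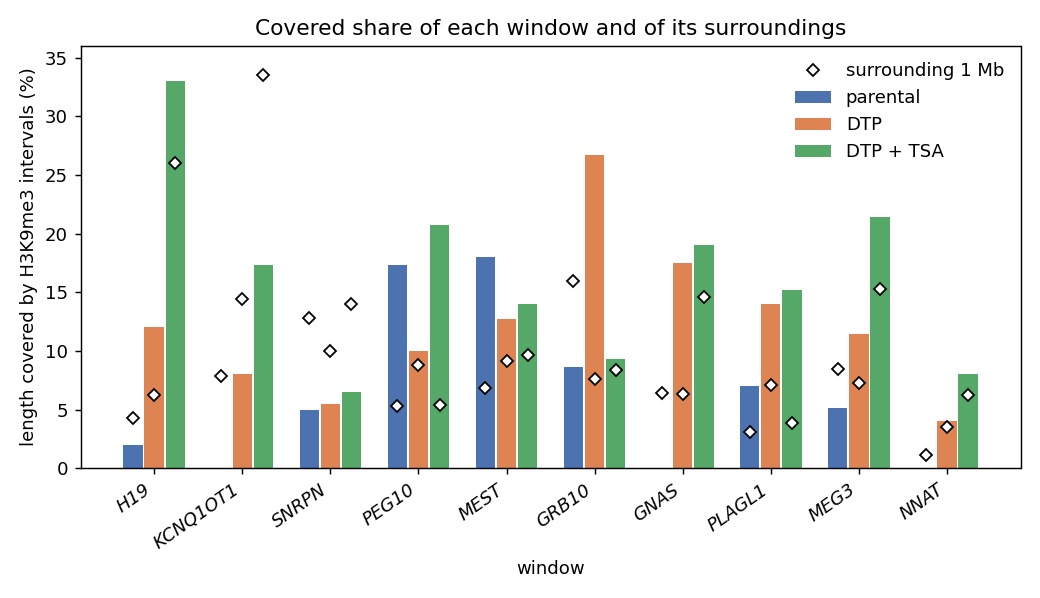
Share of each window covered by H3K9me3 intervals in percent, by library (bars), and the covered share of the surrounding 1 Mb (diamonds). H19 goes from 2.0% to 12% and 33.0% and its surroundings from 4.24% to 6.24% and 26.0%, while PEG10 in DTP + TSA stands at 20.7% against 5.38% around it.

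A window was counted as covered more or less at 2-fold of covered length, or when covered in 1 library alone. From parental cells to DTP, H19, KCNQ1OT1, GRB10, GNAS, PLAGL1, MEG3 and NNAT, 7 of 10, were covered more and 0 less, where 27.9% of all 40 kb pieces were covered more and 8.81% less. PEG10 (0.577 times) and MEST (0.704 times) had a shorter covered length in DTP within that limit, and SNRPN 1.10 times. With as many of the strongest intervals by mean signal in each list as the parental one holds, 3 windows were covered more and 1 less. Of the pieces, 13.5% and 14.5% were, so 4 of the 7 rest on DTP intervals below that cutoff. The strongest of those left out were near the DTP median at GRB10 and MEG3, at percentiles 48.0 and 49.3. At KCNQ1OT1 and NNAT they were at 6.01 and 36.1. H19, GNAS and PLAGL1 were the windows still covered more, PLAGL1 at 2.0 times, on the limit itself. MEG3 was the one covered less. Its longer DTP interval ranked 24285, just past the 23842 kept, while the parental list was kept whole. H19 had no summit inside its window in any library, and with the summit required there it was within the limit in every comparison. Its whole interval was 2.4 kb long in parental cells and 4.6 kb in DTP, of which 0.4 and 2.4 kb lay inside.

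From DTP to DTP + TSA, H19, KCNQ1OT1, PEG10 and NNAT were covered more and GRB10 less, 4 and 1 of 10, where 13.8% and 12.3% of the pieces were. H19 was no longer among them when 50% of an interval or its summit had to lie in the window, nor KCNQ1OT1 with equal numbers of the strongest intervals. Among stronger intervals, by either setting, GRB10 was within the limit, PLAGL1 was covered less and MEG3 covered more. MEG3 was also covered more with intervals joined and with wider windows. PEG10 and NNAT kept their call under all 6 alternatives, none of which varied the 2-fold limit. Both lay close to that limit, PEG10 at 2.07 times and NNAT at 2.0 times, and the 2 NNAT intervals did not overlap. From parental cells to DTP + TSA, 6 windows were covered more and 0 less, where 29.9% and 9.15% of the pieces were. DTP + TSA had 1.08 times the parental length at GRB10, 1.19 times at PEG10 and 1.30 times at SNRPN. GNAS, KCNQ1OT1 and NNAT had intervals in both treated libraries. PLAGL1, at 2.18 times, was covered less than in parental cells among the strongest intervals, since neither of its DTP + TSA intervals was above the median signal. The comparisons share libraries and are not independent of each other.

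Windows near chromosome ends and interior windows are set side by side, since the surroundings differed most between them after TSA. H19, KCNQ1OT1, GNAS and MEG3 lie within 10 Mb of a chromosome end, from 2.01 to 6.02 Mb, and were covered over 2.0%, 13.4% and 21.0% in the parental, DTP and DTP + TSA libraries. Their surroundings stood at 6.74%, 8.56% and 22.3%, so DTP + TSA had 1.57 times the DTP length in these windows and 2.61 times in their surroundings. The 6 interior windows were covered over 9.04%, 12.6% and 12.9% and their surroundings over 7.53%, 7.67% and 7.91%. From parental cells to DTP the ratio was 6.70 in the 4 windows near ends and 1.27 around them. In the 6 interior windows it was 1.39, and 1.02 around them. The ratio of 6.70 starts from a parental share of only 2.0%, and GNAS, without a parental interval, held the largest part of the DTP length. With equal numbers of the strongest intervals, KCNQ1OT1 and MEG3 had no DTP interval, while H19 and GNAS were still covered more. The ratios of these groups were not computed in that setting. The surroundings of H19 and KCNQ1OT1 overlap. This grouping was made after the data had been seen, and the part of the surroundings in each window's change was not tested.

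**Figure D4:**
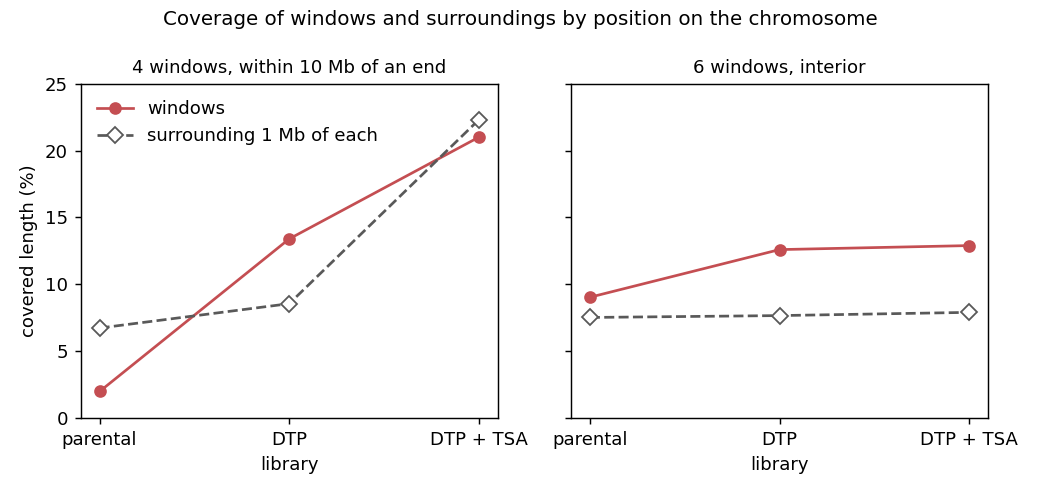
Covered length in percent of the windows (circles) and of the 1 Mb around each (diamonds), by library, for the 4 windows within 10 Mb of a chromosome end and the 6 interior ones. Near ends the windows go from 2.0% to 13.4% and 21.0%, and the surroundings reach 22.3% in DTP + TSA. Interior surroundings, pooled, stay between 7.53% and 7.91%, while single loci among them change in both directions.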

How the data were processed

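H3K9me3 ChIP-seq intervals of 3 of the 8 samples were used; 2 H3K4me3 and 3 input samples were not analysed here. The submitters' processing notes name the aligner BWA, the caller SICER and 2 builds, hg19 and dm3, with no version or role. Which input and threshold were used, and whether libraries were scaled, is not given in the sources used here. Per the file headers, the authors' signal is a summit value and a mean over the bins of each interval; it served only to describe and rank intervals within 1 library. Every start and end fell on a 200 bp grid. Coordinates are 1-based on hg19, with summits as deposited.

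Percentiles are the share of a library's intervals with a lower mean signal, counting ties at their middle. Genome pieces are consecutive, on chromosomes 1 to 22 and X, with hg19 lengths from circlize 0.4.16 (R 4.3.3). Alternatives were 50% overlap, summit in the window, the upper part of each list split at its median signal, equal numbers of the strongest intervals, joining within 5 kb and windows wider by 10 kb. Tools were pandas 2.3.3, numpy 2.4.6, matplotlib 3.10.9 and scipy 1.17.1 in Python 3.11.15. Code was tested on inputs with known answers, and 6 of 6 checks returned them. All 10 members are named whatever their values. The members, windows and lists were chosen with earlier results of these data known. A planned list of other imprinted genes needed hg19 gene positions and was not applied. The share around the windows with equal numbers of intervals was an alternative added after seeing the data.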

Additional observations from a re-analysis of the deposited data

How the results depend on the processing

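With 1 library per state, no replicate could be left out, and no labelled value has a spread. No paired analysis was possible because each group has 1 sample. The number of windows with an interval stayed within 6 to 8 in parental cells, 7 to 10 in DTP and 8 to 10 in DTP + TSA over the 6 alternatives. Of 40 kb pieces, 14.8%, 26.5% and 28.2% held an interval with the upper part of each list. With equal numbers it was 25.4%, 26.4% and 25.9%. For the other alternatives this share was not computed. A covered share counted as moved when it left the exact 95% binomial interval of the main share over 200 bp steps, which are not independent. With the summit required in the window, DTP + TSA covered 15.1% in place of 16.7%. With the upper part of each list by mean signal, DTP covered 8.33% in place of 13.0% and DTP + TSA 11.1%. From parental cells to DTP 3 windows were then covered more and 1 less, against 7 and 0, and from parental cells to DTP + TSA 1 was covered less, against 0. When each list kept equally many of its strongest intervals, these shares were 8.33% and 10.4%, and these 3 counts were again 3, 1 and 1. Both settings leave fewer DTP and DTP + TSA intervals by construction. With equal numbers, 13.5% of the pieces were covered more and 14.5% less from parental cells to DTP. For other comparisons and alternatives the pieces covered more or less were not counted, so those window counts have no share beside them. Joining within 5 kb gave 6.88% in parental cells in place of 5.77%, 20.3% in DTP + TSA, and 1 window, PEG10, covered less in DTP. Wider windows gave 11.1% in DTP. GNAS was covered more in both treated libraries than in parental cells under all 6 alternatives, and SNRPN and MEST never passed the 2-fold limit in any comparison. From parental cells to DTP, MEG3 turned from covered more to covered less under the upper part and under equal numbers, and PLAGL1 did so from parental cells to DTP + TSA. Depth limits every value, since a deeper library can list more and longer intervals.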
